A study of Mus musculus with 18 samples.

Results

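The Hippo pathway and its TEAD transcription factors are represented here by 10 genes, which were chosen by symbol and were all found among the 20703 genes of the expression table. They are the TEAD family (Tead1, Tead2, Tead3 and Tead4), the TEAD coactivators Yap1 and Wwtr1 (TAZ), the angiomotins Amot and Amotl2, and the kinases Lats1 and Lats2. The rule used no level, although earlier results of these data were known when the genes were chosen. RNA was sequenced from E14 mouse embryonic stem cells (mESCs), a line derived from the blastocyst that can be kept undifferentiated with the cytokine LIF. The controls were labelled WT, and the Nsd1-KO cells were 2 clonal lines, KO-1 and KO-2, in which CRISPR-Cas9 ribonucleoproteins had removed exon 5 of both copies of Nsd1, a methyltransferase of histone H3 lysine 36. According to the methods of the study, the KO lines were made in E14 cells whose endogenous Nsd1 gene carried a 3×Flag tag at its end. The labels do not say whether the WT libraries come from that tagged parent. Each KO line is 1 clone, so a difference between the lines cannot be told apart from a difference between single cells from which they grew. Cells were collected at day 0, 2 and 4 of a monolayer differentiation started by withdrawal of LIF and of mouse embryonic fibroblast (MEF) feeder cells, with 2 biological replicates per line and day and 18 libraries in all. Before withdrawal the medium contained LIF and the cells grew on a MEF layer or on gelatin. The polyA RNA libraries held between 9309874 and 23921193 counts, and the WT libraries of day 2 were the shallowest pair, with 9309874 and 9356867.

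In the Hippo pathway the kinases Stk3 and Stk4 (MST) with their partner Sav1 activate Lats1 and Lats2, which phosphorylate Yap1 and Wwtr1 and so keep them out of the nucleus. When they are not phosphorylated, both coactivators enter the nucleus and bind a TEAD protein, which carries the DNA-binding domain that they lack. Angiomotins hold Yap1 at cell junctions and in the cytoplasm and can activate the LATS kinases. Amotl2 and Lats2 are themselves known targets of Yap1, and Tead4 is known for its part in the trophectoderm of the early embryo. Transcript levels do not show where Yap1 lies in the cell or whether it is phosphorylated, and neither was measured in these libraries.

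TEAD proteins bind the letters GGAATG, and the members whose promoter windows hold them are shown because they include both coactivators and 2 genes known as YAP targets. RefSeq windows (GRCm38.p6) from 250 bases before to 50 after a transcription start were found for 8 of the 10 genes, in 12 windows, and not for Tead1 and Tead4. GGAATG on either strand stood in the windows of 5 of these 8 genes (7 of 12 windows), against 16.6% of 27025 genes and 14.7% of 32851 windows in the whole table. Both windows of Wwtr1 overlap and hold the same match, which is counted in each. The match is a description of letters, and binding was not measured here. In each 30-base stretch below the capitals mark 1 match of the 6 letters (the stretch of Tead3 holds a further CATTCC, left in lower case), read on the strand of the gene, so that CATTCC is GGAATG on the other strand.

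Yap1, chr9:8004720-8004749, minus strand: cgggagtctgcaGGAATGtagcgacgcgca

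Wwtr1, chr3:57576029-57576058, minus strand: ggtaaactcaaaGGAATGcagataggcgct

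Tead3, chr17:28350706-28350735, minus strand: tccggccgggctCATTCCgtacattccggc

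Amotl2, chr9:102717727-102717756, plus strand: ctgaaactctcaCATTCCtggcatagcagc

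Lats2, chr14:57746102-57746131, minus strand: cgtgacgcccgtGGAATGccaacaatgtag

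Ccn1, a classical YAP target outside the member list, chr3:145650071-145650100, minus strand: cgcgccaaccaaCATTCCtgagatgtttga

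The stretches of Tead3, Amotl2 and Lats2 overlap an annotated exon, and those of Yap1, Wwtr1 and Ccn1 overlap none. The letters began 141 bases before the start in Yap1 (position -141), at position -65 in Amotl2 and at position -103 in Ccn1. Tead3 held them 3 times in a single window, more often than any other member. Of the 20 known YAP target genes listed for comparison, 13 had windows and 5 held the letters (Ccn1, Ankrd1, Axl, Crim1 and Ptpn14).

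Nsd1 itself (ENSMUSG00000021488) was examined first as the check of the labels. At day 0 its normalized counts (counts divided by the size factor of the library) were 3374 and 3659.9 in WT, 836.7 and 710.5 in KO-1, and 689.4 and 634.9 in KO-2. All 12 KO libraries lay below the WT libraries of their day, and the mean was 4.90-fold lower in KO at day 0, 3.25-fold lower at day 2 and 2.77-fold lower at day 4. The counts cover the whole gene, so transcripts that lack exon 5 are still counted.

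In WT cells at day 0 the member with the highest level per kb of exon was Tead2, with 589 ± 5 normalized counts per kb (SD, n = 2). Yap1 followed with 413 ± 11, then Amotl2 with 292 ± 29, Wwtr1 with 243 ± 0.58, Tead1 with 223 ± 5.9, Tead4 with 99.2 ± 2.8 and Lats1 with 71.1 ± 4.5. Amot, Tead3 and Lats2 were lowest, at 22.3 ± 0.33, 7.54 ± 0.24 and 4.48 ± 1.7. Each neighbouring pair in this order was separate in the libraries. By day 4 Amotl2 (1934 ± 71) and Amot (1299 ± 109) had passed Tead2 (1028 ± 14) in WT cells, and only Tead3 (121 ± 2.6) and Tead4 (115 ± 13) overlapped as neighbours. In KO cells at day 4 the order was instead led by Yap1, with 771 ± 22 normalized counts per kb (SD, n = 4), followed by Tead2 with 700.4 ± 23 and Amotl2 with 625 ± 35, the latter pair overlapping.

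**Figure D1:**
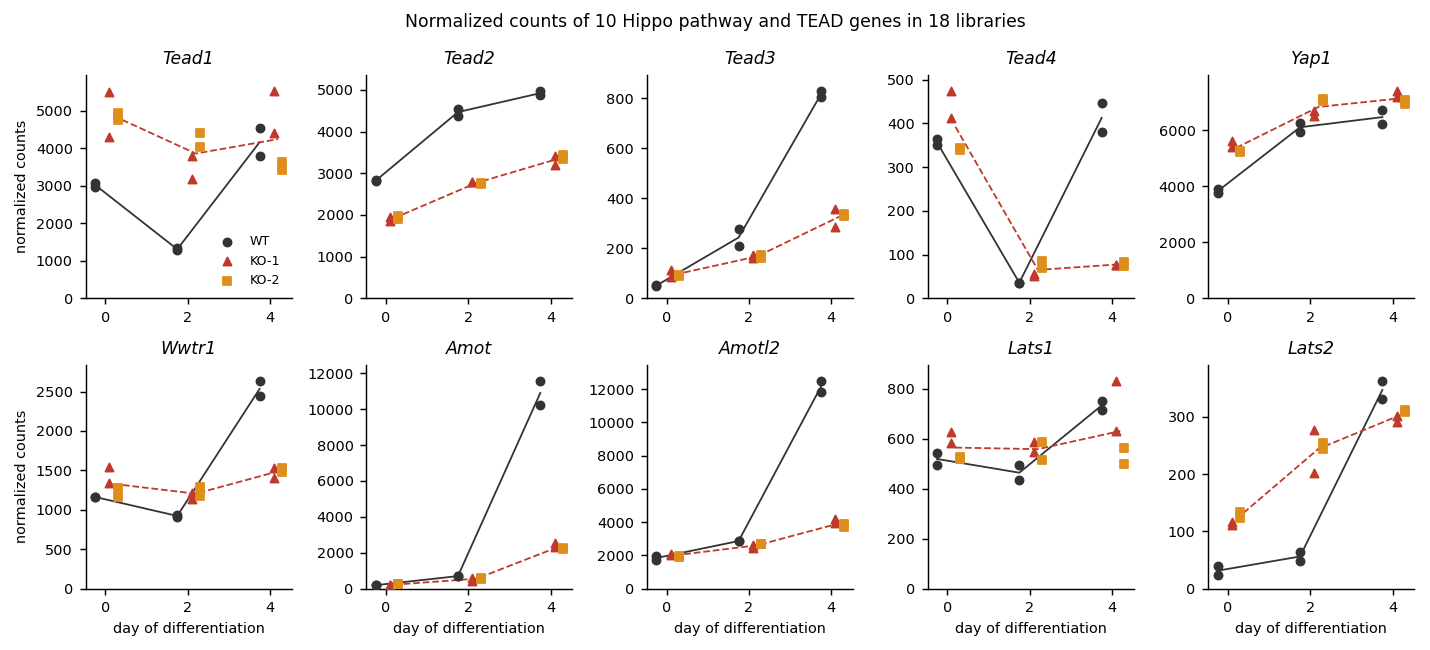
Normalized counts (vertical axes, linear from 0) of the 10 genes against the day of differentiation, with a point for each of the 18 libraries (black circles WT, red triangles KO-1, orange squares KO-2), a solid line through the WT means and a dashed line through the KO means. Amot reached 11560 and 10261 in WT at day 4 and stayed at or below 2536 in the KO libraries, and Tead1 at day 2 was 1282 and 1331 in WT and at least 3187 in the KO libraries.

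The members were not static in WT cells. The test was limma on the deposited log2 values (the variance stabilizing transformation, VST), and called genes passed an adjusted p of 0.01 with a log2 fold change beyond 0.58 in either direction. Between day 0 and day 2, 5 of the 10 members were called in WT (Tead1 and Tead4 lower, Tead3, Yap1 and Amot higher), where 6.68% of all genes were. Between day 2 and day 4, 7 rose (Tead1, Tead3, Tead4, Wwtr1, Amot, Amotl2 and Lats2) and 0 fell, where 8.76% of all genes were called in either direction. Over the whole interval from day 0 to day 4, 7 were higher (Tead2, Tead3, Yap1, Wwtr1, Amot, Amotl2 and Lats2) against a background of 13.8%. In both comparisons with day 4 of WT, limma had 0 lower members with an unadjusted p under 0.05, and limma-voom called 0 lower. The call of Yap1 between day 0 and day 2 in WT was lost without WT day 0 replicate 2 or WT day 2 replicate 2 (log2 fold change 0.57 each) and with median centring (0.579), and without WT day 2 replicate 1 that of Tead3 (0.56). In KO cells 2 members were called between day 0 and day 2 (Tead4 lower and Amot higher, background 3.2%, with Amot lost for KO-2 alone at 0.57), 1 between day 2 and day 4 (Amot higher, background 1.49%), and 5 between day 0 and day 4 (Tead2, Tead3, Amot and Amotl2 higher and Tead4 lower, background 6.5%). These time comparisons share the libraries of their days and are not independent of each other.

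The KO effect on the members changed with the day. At day 0, 1 of 10 members was called higher in KO (Tead1), where 1.73% of all genes were, and 0 were called lower, where 0.879% were. Beside that 0, limma gave 1 member lower at an unadjusted p under 0.05 (Tead2), and limma-voom called 0 lower. At day 2, 2 were called higher (Tead1 and Lats2, background 4.01%) and 1 lower (Tead2, background 2.37%). At day 4, 0 were called higher (background 3.67%) and 5 lower (Tead3, Tead4, Wwtr1, Amot and Amotl2, background 3.91%). Beside the 0 at day 4, limma gave 1 member higher at an unadjusted p under 0.05 (Yap1), and limma-voom called 0 higher. Over the members the log2 fold change had a median of 0.11 at day 0, of 0.14 at day 2 and of -0.54 at day 4, beside medians over all genes of -0.0032, -0.016 and 0.00. Every KO library lay on one side of both WT libraries for 5 members at day 0 (47.4% of all genes did), for 10 at day 2 (57.5%) and for 8 at day 4 (49.8%). An exact permutation test of 4 libraries against 2 cannot give a p below 0.0667, so single genes rest on the fit across all genes.

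**Figure D2:**
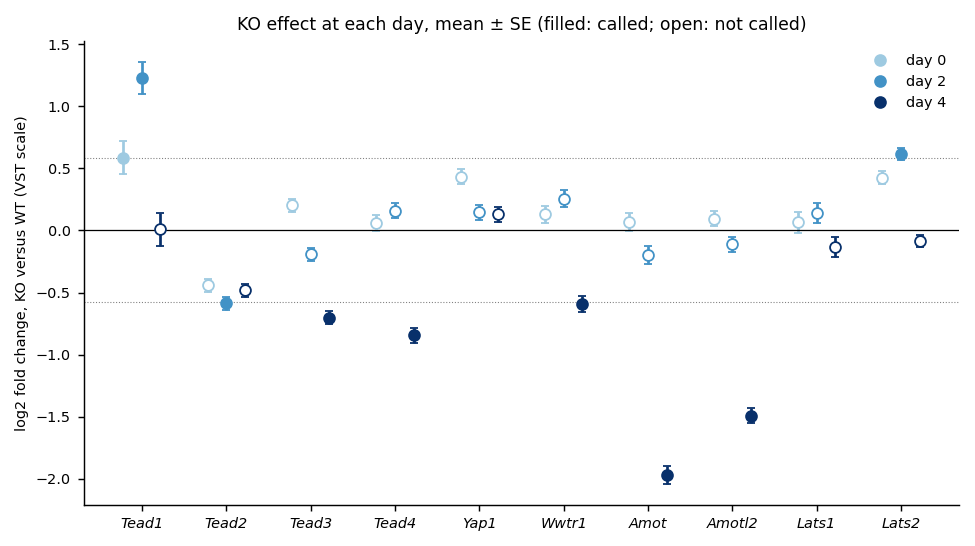
Log2 fold change of KO versus WT on the VST scale (vertical axis) for each member at day 0, 2 and 4, as the limma estimate ± SE from 2 WT and 4 KO libraries per day, with filled points where the gene was called, open points where it was not, and dotted lines at the fold threshold of 0.58 in both directions. At day 4 the 5 called members lay between -0.59 and -1.97, and Tead1 moved from 1.23 at day 2 to 0.01.

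The difference between days was tested itself. The KO effect at day 4 differed from that at day 0 for 5 members, all more negative at day 4 (Tead3, Tead4, Wwtr1, Amot and Amotl2), where 6.93% of all genes were called. It differed from the effect at day 2 for 6 members, again all more negative at day 4 (Tead1, Tead4, Wwtr1, Amot, Amotl2 and Lats2), with a background of 6.41%. Between day 2 and day 0 it differed for 0 members (background 3.19%), where limma gave 6 members at an unadjusted p under 0.05 and limma-voom called 1 (Tead3). Without KO-1 day 0 replicate 1, KO-1 day 2 replicate 1, KO-1 day 4 replicate 1 or KO-2 day 4 replicate 1, Tead1 was called in that last comparison.

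Among the TEAD factors, Tead1 (ENSMUSG00000055320) was higher in KO cells at the first 2 time points and indistinguishable at the last. At day 0 its normalized counts were 2967 and 3080.2 in WT, 5488 and 4288 in KO-1, and 4735 and 4923 in KO-2. The groups did not overlap, and the log2 fold change was 0.59 ± 0.13 (SE, adjusted p = 0.0018), a 1.61-fold higher mean. This call lay at the fold threshold: it was lost without WT day 0 replicate 1 (0.56), WT day 0 replicate 2 (0.61, adjusted p = 0.020), KO-1 day 0 replicate 1 (0.53) or KO-2 day 0 replicate 2 (0.579), and after quantile normalization (0.55). At day 2 the counts were 1282 and 1331 in WT, 3187 and 3798 in KO-1, and 4019.6 and 4412 in KO-2. The groups were far apart, and the mean was 2.95-fold higher in KO (log2 fold change 1.23 ± 0.13, adjusted p = 2.1e-07). WT cells thus held 2.31-fold less Tead1 at day 2 than at day 0 and then 3.18-fold more at day 4, whereas in KO cells the changes of -0.30 ± 0.11 and 0.11 ± 0.11 on the log2 scale were not called. At day 4 the counts were 4525 and 3789 in WT, 5516 and 4396 in KO-1, and 3418 and 3627 in KO-2, with the WT pair inside the KO range (log2 fold change 0.01 ± 0.13, adjusted p = 0.97). The KO lines lay apart here, KO-1 above KO-2 by 0.42 ± 0.10 on the log2 scale (adjusted p = 0.0094), which is short of the fold threshold, and the sign of the KO effect was negative for KO-2 alone (-0.20).

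Tead2 (ENSMUSG00000030796), the TEAD gene with the highest mean level per kb in every group (its KO libraries of day 0 overlapped with those of Tead1), was lower in KO at each day. At day 2 it had 4553 and 4384 normalized counts in WT, 2784 and 2787 in KO-1, and 2737 and 2774 in KO-2. The 4 KO libraries lay close together and far below WT, with a log2 fold change of -0.59 ± 0.05 (adjusted p = 1.5e-08), a 1.61-fold lower mean. This value too sat at the fold threshold, and the call was lost when libraries were centred on their medians (-0.53) and without WT day 2 replicate 1 (-0.56). At day 0 (2838 and 2804 in WT, 1855 to 1985 in KO) and day 4 (4972 and 4876 in WT, 3200.1 to 3448 in KO) the groups also did not overlap. The log2 fold changes were -0.44 ± 0.05 and -0.48 ± 0.05 (adjusted p = 1.7e-06 and 1.7e-07), under the threshold for size. Between day 0 and day 4 Tead2 rose in both genotypes, 1.75-fold in WT and 1.74-fold in KO.

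Tead3 (ENSMUSG00000002249) rose from a low level in WT cells, and rose less in KO cells. Its WT libraries had 49.5 and 51.8 normalized counts at day 0, 278.6 and 207.5 at day 2, and 803.0 and 827.8 at day 4. In KO they ran from 83.5 to 113.8 at day 0, from 162.3 to 174.0 at day 2, and from 284.1 to 357.0 at day 4. KO cells were therefore above WT at day 0 and below it at the later days, without overlap at any day. At day 4 the mean was 2.50-fold lower in KO (log2 fold change -0.70 ± 0.05, adjusted p = 6.4e-10). At day 0 it was 1.87-fold higher, which limma-voom called (0.92 ± 0.24, adjusted p = 0.0059) and limma on the VST values did not (0.20 ± 0.05), since near the floor of the VST scale, where a count of 0 has the value 8.36, differences are compressed.

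Tead4 (ENSMUSG00000030353) showed the largest fold among the TEAD factors at day 4. It had 364.0 and 349.6 normalized counts in the WT libraries of day 0, against 473.8 and 412.6 in KO-1 and 338.0 and 344.1 in KO-2, so the groups overlapped there. At day 2 it was lower in both genotypes, with 35.8 and 35.7 in WT and between 50.8 and 85.0 in KO, a 9.98-fold fall of the mean in WT and a 6.03-fold fall in KO. At day 4 WT cells were back at 445.8 and 379.5, whereas KO-1 had 76.7 and 76.3 and KO-2 had 74.9 and 83.9. The KO mean was 5.29-fold lower (log2 fold change -0.85 ± 0.06 on the compressed VST scale, adjusted p = 4.0e-10, and -2.39 ± 0.16 by limma-voom). From day 2 to day 4 the WT mean rose 11.5-fold and the KO mean 1.20-fold, the latter not called (0.06 ± 0.05).

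Summed over the family, TEAD level per kb was nearly the same in both genotypes at day 0, with 919 ± 1.7 in WT (SD, n = 2) and 883 ± 38 in KO (SD, n = 4), and the ranges overlapped. It was higher in WT at day 2 (1076 ± 30 against 906 ± 38) and at day 4 (1571 ± 63 against 1083 ± 52), where the ranges did not overlap. The makeup of the family also differed. At day 2 Tead1 made up 8.62% and 9.30% of the family level in the WT libraries and between 27.4% and 34.3% in the KO libraries, while Tead2 made up 86.7% and 86.8% in WT and between 61.1% and 67.8% in KO. At day 0 the share of Tead1 was 24.3 ± 0.69% in WT and 40.5 ± 2.6% in KO. At day 4 Tead1 held 19.5 ± 1.7% in WT and 28.7 ± 5.1% in KO, Tead2 held 65.5 ± 1.7% and 64.8 ± 4.5%, Tead3 held 7.74 ± 0.48% in WT and 4.51 ± 0.54% in KO, and Tead4 held 7.29 ± 0.54% and 2.00 ± 0.15%. With the length of the longest transcript in place of summed exons, the share of Tead1 at day 2 was 8.58% in WT and 30.3% in KO. With that length Tead3 held 10.6% in WT and 6.21% in KO at day 4, and Tead4 held 5.99% and 1.66%. These shares are levels of mRNA and were not tested.

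**Figure D3:**
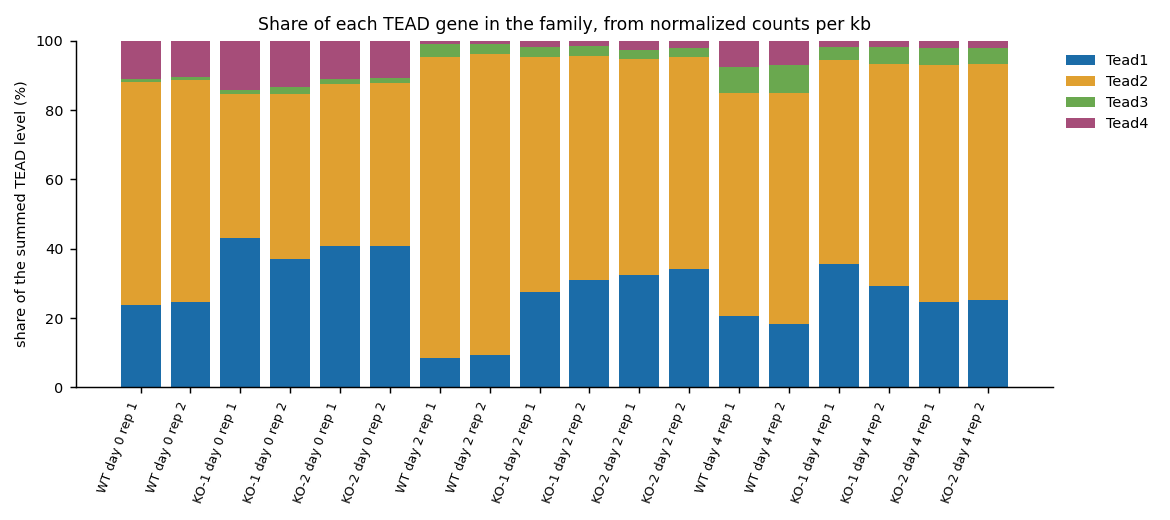
Share of each of the 4 TEAD genes in the summed family level (vertical axis, percent, from normalized counts per kb of summed exon length) in each of the 18 libraries, stacked to 100%. The Tead1 segment was thinnest in the WT libraries of day 2 (8.62% and 9.30%) and the Tead4 segment at day 4 was wider in the WT than in the KO libraries.

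The coactivators differed from each other. Yap1 (ENSMUSG00000053110) had at day 0 3896 and 3752 normalized counts in the WT libraries, 5609.7 and 5399 in KO-1, and 5209.7 and 5265 in KO-2, so every KO library was higher, by 1.40-fold in the mean. The log2 fold change of 0.43 ± 0.06 (adjusted p = 1.4e-05) did not reach the threshold for size. The KO effect was smaller at day 2 (0.15 ± 0.06, adjusted p = 0.051) and day 4 (0.13 ± 0.06, adjusted p = 0.097), and the change of that effect from day 0 to day 4 was not called (-0.30 ± 0.08, adjusted p = 0.011). Wwtr1 (ENSMUSG00000027803) was called in no comparison of days in KO cells and rose late in WT cells. At day 4 it had 2630.4 and 2438 normalized counts in WT, 1405 and 1528 in KO-1, and 1485 and 1532 in KO-2, with both WT libraries above all KO libraries. The KO mean was 1.70-fold lower (log2 fold change -0.59 ± 0.07, adjusted p = 2.6e-07). The call was lost for KO-2 alone (-0.58), with median centring (-0.57), without WT day 4 replicate 1 (-0.55) and without KO-1 day 4 replicate 1 (-0.57), each time because the value fell just under the size threshold. From day 2 to day 4 Wwtr1 rose 2.75-fold in WT, and 1.24-fold in KO, where it was not called.

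On the VST scale the angiomotins showed the largest log2 fold changes of the 10 genes between genotypes, whereas by the ratio of normalized counts and by limma-voom Tead4 at day 4 lay beyond both. By these measures Lats2 at day 0 (3.88-fold, 1.91) and day 2 (4.36-fold, 2.11) also lay beyond Amotl2 at day 4 (3.10-fold, -1.63), though not beyond Amot. Amot (ENSMUSG00000041688) was similar in all libraries of day 0, with 189.5 and 185.6 normalized counts in WT and between 176.0 and 257.3 in KO. At day 2 it had 705.6 and 684.0 in WT, 446.6 and 603.8 in KO-1, and 547.7 and 594.3 in KO-2, a difference that was not called (-0.20 ± 0.07, adjusted p = 0.030). At day 4 the counts were 11560 and 10261 in WT, 2536 and 2294 in KO-1, and 2218 and 2288 in KO-2. Amot thus rose 15.7-fold between day 2 and day 4 in WT and 4.26-fold in KO, both called, and at day 4 the KO mean was 4.67-fold lower (log2 fold change -1.97 ± 0.07, adjusted p = 8.6e-15). Amotl2 (ENSMUSG00000032531) followed a like course from a higher start. The WT libraries of day 0 had 1966 and 1705 normalized counts and the KO libraries between 1889.6 and 2089, and at day 2 it had 2863 and 2861 in WT and between 2468 and 2672 in KO. At day 4 it reached 12478 and 11843 in WT, against 3936 and 4214 in KO-1 and 3887 and 3679 in KO-2, a 3.10-fold lower mean in KO (log2 fold change -1.49 ± 0.06, adjusted p = 8.3e-14). Both angiomotins were alike in that all 4 KO libraries of day 4 stood far below both WT libraries.

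Of the LATS kinases, Lats1 (ENSMUSG00000040021) was not called in any comparison of genotypes or days on the VST values, and limma-voom called it higher at day 4 than at day 2 in WT (0.66 ± 0.18, adjusted p = 0.0067). Its normalized counts lay between 433.4 and 829.9 over all 18 libraries, and at day 4 it had 751.7 and 714.8 in WT, 829.9 and 630.0 in KO-1, and 500.5 and 562.7 in KO-2, so that WT lay between the KO-1 libraries and above KO-2. The KO lines differed there by 0.25 ± 0.07 on the log2 scale (adjusted p = 0.017), which was not called. On the log2 scale its KO effect was 0.06 ± 0.08, 0.14 ± 0.08 and -0.14 ± 0.08 on the successive days. Lats2 (ENSMUSG00000021959) was higher in KO cells before day 4. At day 0 the WT libraries were at 39.4 and 23.0 normalized counts (47 and 16 counts before normalization), against 110.8 and 116.2 in KO-1 and 124.2 and 133.7 in KO-2. The KO mean was 3.88-fold higher, a log2 fold change of 0.42 ± 0.05 on the VST scale (not called) and 1.91 ± 0.28 by limma-voom (called, adjusted p = 3.5e-05). At day 2 it had 48.9 and 63.2 in WT, 202.8 and 276.5 in KO-1, and 254.3 and 244.5 in KO-2, a 4.36-fold higher mean (log2 fold change 0.62 ± 0.05, adjusted p = 6.3e-09, and 0.579, under the threshold, without WT day 2 replicate 1, where Tead1 alone was called at that day). At day 4 WT cells had 332.1 and 362.4 and KO cells between 292.0 and 312.2, a difference of -0.09 ± 0.05 that was not called. Lats2 therefore rose 6.20-fold between day 2 and day 4 in WT. The KO mean was 1.24-fold higher at day 4 than at day 2, which was not called (0.13 ± 0.04).

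By limma-voom on the recovered counts 3 members were called at day 0 (Tead1, Tead3 and Lats2, background 13.3%), 3 at day 2 (Tead1, Tead2 and Lats2, background 23.9%) and 5 at day 4 (Tead3, Tead4, Wwtr1, Amot and Amotl2, background 23.9%). On that scale the medians for the successive days were 0.18, 0.21 and -0.66 over the members and -0.033, -0.14 and 0.0023 over all genes. The directions of all calls were those of the VST fit. A fit of 9 groups set KO-1 against KO-2 and called 0 members at day 0 (background 0.029%), at day 2 (0.0435%) and at day 4 (0.251%). In those comparisons limma gave 3, 2 and 2 members at an unadjusted p under 0.05, and limma-voom called 0 at each day.

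Other genes of the pathway were taken from a list of 34, of which 33 were in the table. At day 0, 4 of the 33 were called higher in KO (Vgll3, Ajuba, Fat1 and Ptpn14) and 0 lower, where limma gave 4 lower at an unadjusted p under 0.05 and limma-voom called 1 lower. At day 2, 3 were called higher (Map4k4, Vgll3 and Ptpn14) and 1 lower (Crb3). At day 4, 2 were called higher (Taok3 and Stk38l) and 6 lower (Mob1b, Frmd6, Amotl1, Vgll4, Crb3 and Patj). By limma-voom the list had 7 higher and 1 lower at day 0, 13 higher and 3 lower at day 2, and 3 higher and 9 lower at day 4, beside 13.3%, 23.9% and 23.9% of all genes called in either direction by that fit. The median log2 fold change of the list was 0.21, 0.32 and -0.06 at day 0, 2 and 4, and 0.38, 0.49 and -0.067 by limma-voom. The shares of all genes called on the VST values were 1.73% higher and 0.879% lower at day 0, 4.01% and 2.37% at day 2, and 3.67% and 3.91% at day 4. The core kinases Stk3 and Stk4, their scaffold Sav1 and the upstream activator Nf2 were not called at any day on the VST values, whereas limma-voom called Stk3 at day 2 and day 4 and Sav1 and Nf2 at day 2. Nf2 was 0.43 ± 0.06, 0.51 ± 0.06 and 0.36 ± 0.06 higher on the log2 scale at day 0, 2 and 4, each under the size threshold.

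Among the genes at the cell surface and the junctions, Fat1, a giant cadherin that can signal to the pathway, was at 2570 ± 155 in WT (normalized counts, SD, n = 2) and at 5028 ± 647 in KO (n = 4) at day 0 (log2 fold change 0.82 ± 0.16, adjusted p = 0.00062). Crb3, a Crumbs protein of the apical membrane, had 207.8 ± 19 in WT and 65.3 ± 9.0 in KO at day 0 (-0.48 ± 0.09, not called on the VST values and called by limma-voom), and was lower in KO at day 2 (487.6 ± 29 in WT and 46.0 ± 29 in KO, adjusted p = 2.1e-09) and at day 4 (460.4 ± 29 and 75.6 ± 34, adjusted p = 1.9e-08). Patj, a scaffold of the Crumbs complex, was lower at day 4, with 2314 ± 198 in WT and 1103 ± 212 in KO (-0.80 ± 0.09). Frmd6, a FERM protein related to the fly gene expanded, had 1109.9 ± 33 in WT and 315.8 ± 16 in KO at day 4 (-1.01 ± 0.06, adjusted p = 1.5e-11). Amotl1, the remaining angiomotin, was lower at day 4 as well, with 1959 ± 155 and 1025 ± 265 (-0.69 ± 0.10). All 3 angiomotin genes were thus called lower in KO at day 4 and at no other day.

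Among kinases and TEAD cofactors, Taok3, a kinase upstream of MST, was higher in KO at day 4 (310.2 ± 3.9 in WT and 902.8 ± 140 in KO, 0.82 ± 0.08). Map4k4, which can phosphorylate the LATS kinases, was higher at day 2 (4026 ± 64 and 7406 ± 354, 0.79 ± 0.09). Vgll3 and Vgll4 encode Vestigial-like proteins, which bind TEADs in place of Yap1. Vgll3 was higher in KO at day 0 (120.5 ± 6.7 and 405.8 ± 49) and day 2 (150.3 ± 8.6 and 445.3 ± 89), and Vgll4 was lower at day 4 (847.5 ± 30 and 345.1 ± 34, -0.70 ± 0.06). Ajuba, a LIM protein that restrains LATS, had 2737 ± 175 in WT and 4966 ± 361 in KO at day 0, and its KO effect at day 2 and day 4 was not called. Ptpn14, a phosphatase that binds Yap1 and is also a YAP target, had 709.5 ± 40 and 1631 ± 47 at day 0 and 2254 ± 134 and 5264 ± 601 at day 2.

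Known YAP target genes, a list of 20 that includes Ptpn14 and leaves out the members, did not move in one direction. At day 0, 3 were called higher in KO (Myof, Dock5 and Ptpn14) and 0 lower, and at day 2 the same 3 were called higher and 0 lower. Beside these zeros, 3 targets at day 0 and 7 at day 2 were lower with an unadjusted p under 0.05 by limma, and limma-voom called 2 and 3 lower. At day 4, 1 was called higher (Dock5) and 4 lower (Ccn1, Igfbp3, Nt5e and Tgfb2). The shares of all genes called higher were 1.73%, 4.01% and 3.67% on the successive days, and 3.91% were called lower at day 4. By limma-voom 9 targets were higher and 2 lower at day 0, 4 higher and 3 lower at day 2, and 4 higher and 9 lower at day 4, where limma-voom called 13.3%, 23.9% and 23.9% of all genes in either direction. The medians of the list were 0.22, -0.017 and -0.11 at day 0, 2 and 4, and 0.54, -0.21 and -0.22 by limma-voom. Myof, a membrane repair protein, had 184.5 ± 0.45 normalized counts in WT and 969 ± 65 in KO at day 2 (1.19 ± 0.07, adjusted p = 7.5e-11). Dock5, a guanine nucleotide exchange factor, had 575 ± 69 and 2224 ± 359.8 at day 2 (1.31 ± 0.12). At day 4 its difference (0.584 ± 0.12) lay at the size threshold.

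In WT, 9 of the 20 targets were called higher and 0 lower at day 4 than at day 2, where 8.76% of all genes were called in either direction, and beside that 0 limma had 0 lower with an unadjusted p under 0.05 and limma-voom called 0 lower. Igfbp3, an insulin-like growth factor binding protein, went from 601 ± 57 to 23166 ± 1252 normalized counts in WT between day 2 and day 4 and from 365 ± 13 to 911 ± 196 in KO. Its log2 fold change at day 4 was -4.00 ± 0.09 (adjusted p = 1.7e-18). Ccn1, a matricellular protein, had 6816 ± 132 in WT and 1487 ± 258 in KO (-1.84 ± 0.09, adjusted p = 9.8e-13). Tgfb2, a TGF-beta ligand, had 1044 ± 53 and 116.7 ± 20, and Nt5e, an ectonucleotidase, had 733 ± 17 and 41.2 ± 4.9. Ccn2 and Ankrd1, the classical targets beside Ccn1, were not called at any day on the VST values, whereas limma-voom called Ankrd1 at day 4. Ccn2 had 446 ± 24 in WT and 540.3 ± 159 in KO at day 4, and Ankrd1 had 67.8 ± 6.6 and 13.2 ± 11.

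**Figure D4:**
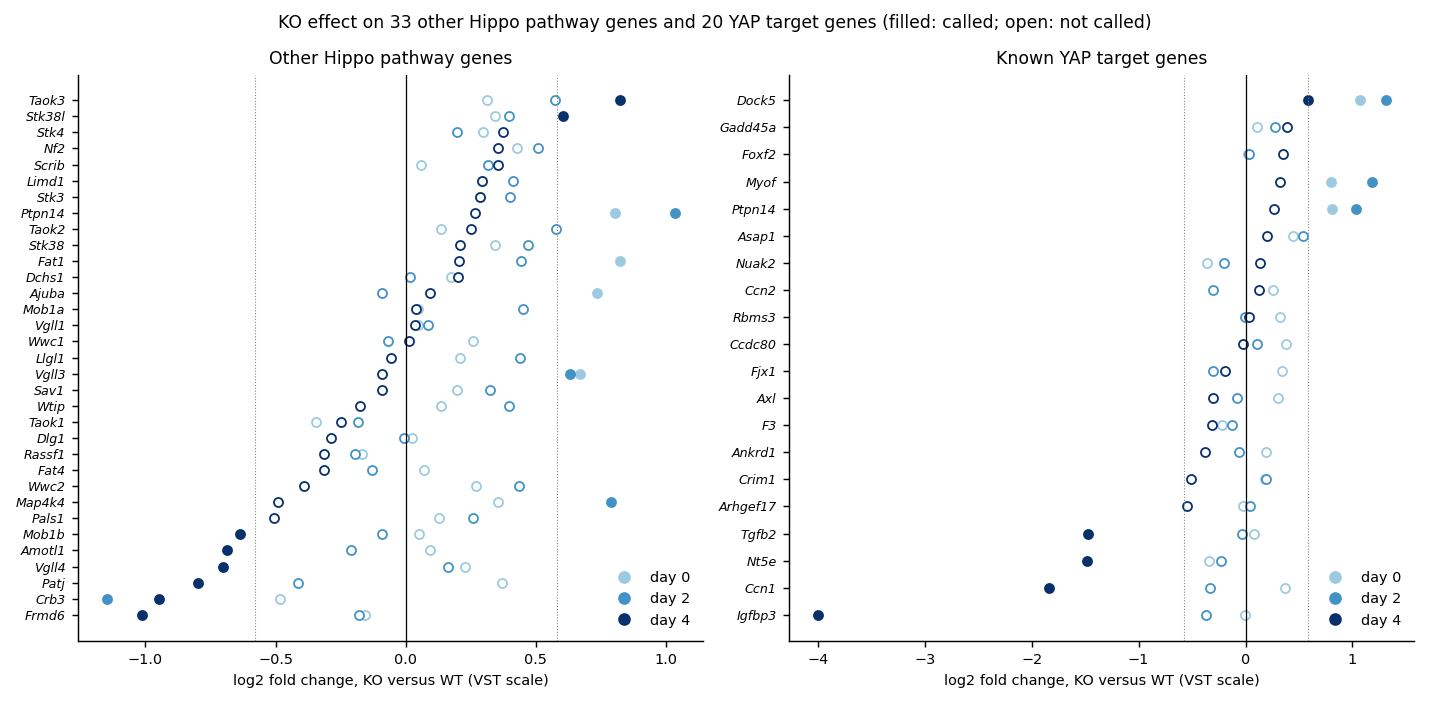
Log2 fold change of KO versus WT on the VST scale (horizontal axes) of 33 other Hippo pathway genes (left) and 20 YAP target genes (right) at day 0, 2 and 4, ordered by the value at day 4, with filled points where the gene was called, open points where it was not, and dotted lines at 0.58 in both directions. Igfbp3 stood at -4.00 at day 4, and called points lay on both sides of 0 in both lists.

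Markers of other cells moved with genotype and day, and their part in the results above was not tested. In bulk RNA, fewer cells of a type and less RNA per cell cannot be told apart. The lists are named after the cells they were chosen for, and whether such cells were present was not tested. The study places Gata4, of the primitive endoderm list, among meso-endoderm factors and Gata6 among those of the heart. At day 0, 3 of 10 feeder fibroblast markers were called higher in KO (1.73% of all genes were), and 9 of 10 had a positive log2 fold change. The median over the list was 0.26 on the VST scale and 0.84 by limma-voom. Their summed normalized counts were 3023 and 2958 in WT, 5128 and 5023 in KO-1, and 5766 and 5880.1 in KO-2. Col1a1 was the most abundant (1482 in WT and 2732 in KO), Dcn had 2.28 and 5.23, and Lum was at 0 in every library of day 0. Primitive endoderm markers summed to 335 and 315 in WT and to between 139 and 154 in KO at day 0, primitive streak markers to 129 and 142 in WT and to between 41.1 and 68.8 in KO, and trophectoderm markers to 2555 and 2571 in WT and to between 2608 and 3548 in KO. In the trophectoderm list Tfap2c was the most abundant (1454 in WT and 2338 in KO), and 3 of 7 log2 fold changes were positive. Their median was -0.11 on the VST scale and -0.46 by limma-voom. Pluripotency markers summed to 76379 and 77404 in WT and to between 80765 and 83559 in KO at that day. Tead1, Lats2, Tead3 and Yap1 stood above WT in the same KO libraries. At day 2 the feeder sum was lower in KO, with 1234 and 1120.0 in WT and between 667 and 860 in KO, while Tead1 and Lats2 were higher in KO. Pluripotency markers summed to 22342 and 19503 in WT and to between 27387 and 34707 in KO at day 2, and 6 of 8 were called higher and 1 lower. Of all genes 4.01% were called higher and 2.37% lower at day 2. Trophectoderm markers summed to 2972 and 2919 in WT and to between 1243 and 1429 in KO at that day (1 of 7 called higher and 2 lower), primitive endoderm markers to 730.0 and 737 in WT and to between 231 and 292 in KO (1 of 6 called lower), and primitive streak markers to 292 and 277 in WT and to between 63.2 and 95.6 in KO.

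At day 4 all 4 primitive streak markers were called lower in KO, with sums of 29730 and 28913 in WT and between 314 and 852 in KO, and T as the most abundant in WT (16248). Of all genes 3.67% were called higher and 3.91% lower at day 4. The 8 pluripotency markers summed to 10069 and 10181 in WT and to between 20817 and 22876 in KO, and 7 of the 8 were called higher. Of 7 trophectoderm markers 1 was called higher and 3 lower, with sums of 36076 and 37264 in WT and between 5842 and 7655 in KO, led by Krt8 in WT (25604). Of 6 primitive endoderm markers 3 were called lower, with sums of 2560 and 2628 in WT and between 284 and 461 in KO, led by Pdgfra in WT (845). Feeder markers summed to 2613 and 2454 in WT and to between 804 and 1502 in KO at day 4, where 1 of 10 was called lower. Col1a1 led them in WT (1583), after the withdrawal of MEF feeders. The lower levels of Amot, Amotl2, Wwtr1, Tead3 and Tead4 stood in the same libraries as these marker levels.

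Patterns over the 18 libraries are given as Pearson's r between VST values, as a description, since all genes share the libraries and their group differences set r. Within the 10 genes the closest were Amot and Amotl2 (r = 0.98), followed by Tead3 with Amot (0.97) and with Amotl2 (0.97). Wwtr1 and Amotl2 had r = 0.85, and Yap1 and Lats2 had r = 0.82. Tead4 and Yap1 ran most against each other (r = -0.61), followed by Tead1 and Tead2 (-0.53). Among 10228 genes with a mean of at least 100 normalized counts, the gene nearest to Tead1 was Sptan1 (0.99), that nearest to Tead2 was Timm21 (0.98), that nearest to Tead3 was Zyx (0.99) and that nearest to Tead4 was Esyt1 (0.97). The nearest to Yap1 was Slc11a2 (0.98), to Wwtr1 Vwa5a (0.96), to Amot Erap1 (0.99), to Amotl2 Erap1 (0.99), to Lats1 Gsk3b (0.92) and to Lats2 Slc7a6 (0.98). On log2(normalized count + 1) the nearest gene was the same for Tead1, Tead2, Tead3, Tead4, Yap1, Lats1 and Lats2, and became Sdc3 for Wwtr1, Tpm1 for Amot and Igfbp3 for Amotl2. Ranks 2 and 3 on the VST scale were Mme and Zbtb10 for Tead1, Sox11 and Tia1 for Tead2, Gnai3 and Tpm1 for Tead3, Klf5 and Ptgs2 for Tead4, and Cdc14a and Mat2a for Yap1. They were Sdc3 and Ppp1r18 for Wwtr1, Pcdh18 and Dpysl5 for Amot, Ghr and Irgm1 for Amotl2, Dpy19l4 and Rapgef6 for Lats1, and Nfyc and Phldb1 for Lats2.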

How the data were processed

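polyA RNA-seq libraries of mESCs (9 combinations of line and day, 2 replicates each) were analysed, and the other assays of the study were not used here. Per the methods and processing notes, the authors trimmed reads with Trim Galore 0.6.7, aligned them to mm39 with STAR 2.7.11a, counted primary nonduplicated reads on exons with featureCounts 2.0.6, and left out genes with an average count under 1. The deposited values are log2-scale VST values from DESeq2 1.42.0 for 20703 genes. They were inverted from their floor of 8.36, and 100% came out as whole counts (within 0.05). Most counts from 1 to 20 (74.9%) were even, for a reason not found. Whether mates of a pair were counted separately was not settled, so the depths and low counts given may exceed the number of independent fragments. The kit does not mark strand, so overlapping antisense transcripts cannot be told apart.

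limma 3.58.1 (R 4.3.3, trended prior) was fitted to the VST values of all 18 libraries in 6 groups (each genotype at each day, both clones pooled), and Benjamini-Hochberg adjustment over all genes. The clones were compared in a fit of 9 groups. limma-voom on the recovered counts was an alternative. DESeq2 and edgeR were not run on the recovered counts. Lengths came from GENCODE M21 (GRCm38, another build than that of the counts) and were found for 99.5% of genes. In the fit of 6 groups, intervals and p-values include the spread between replicates and, within KO, the difference between the pooled clones. That fit has no term for the clone and treats libraries of the same clone as independent, so its p-values do not measure variation between clones. It holds no spread between WT lines, since all WT libraries carry the same line label. KO versus WT is therefore also a comparison of lines, and the part of line or cloning history in it was not tested. The fit of 9 groups covers the spread between replicates of a line alone. Having only 2 WT libraries per day limits both fits.

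The members and gene lists were chosen with earlier results of these data known. Named were all members, Nsd1, the at most 5 genes with the largest change among those called at a day in each list, and the 3 genes most like each member. Stk3, Stk4, Sav1, Nf2, Amotl1, Ccn2 and Ankrd1 were described and the remaining called genes named after their values were seen. Alternatives were each day alone, each clone alone or separate, a replicate block, a 25th percentile filter, quantile normalization, median centring, no trend, another threshold, other lengths or scales, and each library left out. On simulated data for KO versus WT at day 4 (20703 genes), limma recovered 18 of 50 genes changed 2-fold and 43 of 50 changed 4-fold, with 0 of 20503 unchanged genes called, and limma-voom recovered 39 and 49 of 50, with 2 unchanged genes called. The simulated spread was that between replicates of a line and day, and unchanged genes had the same mean in all libraries. The simulation thus held no difference between clones or lines, and its false calls do not cover such differences.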

Additional observations from a re-analysis of the deposited data

Results flagged for a closer look

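The KO effect differed between days, by the interaction term in limma with Benjamini-Hochberg adjustment over all genes, in 11 results on 7 members. From day 0 to day 4 the log2 fold change of KO versus WT moved by -2.04 for Amot (adjusted p = 4.9e-12), -1.59 for Amotl2 (2.6e-11), -0.91 for Tead4 (7.1e-08), -0.90 for Tead3 (7.5e-09) and -0.72 for Wwtr1 (4.2e-06). From day 2 to day 4 it moved by -1.77 for Amot (4.2e-11), -1.38 for Amotl2 (2.5e-10), -1.22 for Tead1 (3.7e-05), -1.005 for Tead4 (1.9e-08), -0.85 for Wwtr1 (5.8e-07) and -0.70 for Lats2 (2.5e-07). The effects at the 3 days come from separate libraries, but both sets of differences use the libraries of day 4. For Tead1 and Lats2 the change was from a higher level in KO at day 2 (4 of 4 KO libraries above both WT libraries) to no called difference at day 4. For the other members it was to a lower level in 4 of 4 KO libraries at day 4. In 30 groups of 4 KO libraries, 10 genes at 3 days, 0 had a library far from the others.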

How the results depend on the processing

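Of 68 results on single genes, 47 called, recomputed under the alternatives (1968 values), 1934 kept direction and side of the threshold, 17 were no longer called, 11 became called and 6 changed sign, 0 of them from a called value. Many alternatives leave out a library that the comparison does not use. These change only the pooled spread and not the fold change, so the 1934 values overstate how far the results were put to a trial. The sign changes were those of Amot at day 0 with KO-1 alone (-0.00689), Tead4 at day 0 with KO-2 alone (-0.030), and Tead1 at day 4 with KO-2 alone (-0.20) or without WT day 4 replicate 2 (-0.10), KO-1 day 4 replicate 1 (-0.11) or KO-1 day 4 replicate 2 (-0.013), and over all libraries left out in turn that value of Tead1 ranged from -0.11 to 0.12.

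Of 419 counts of called members, 394 stayed within 1.5 times the reported count. These too include fits without a library that the comparison does not use. With adjusted p under 0.05 and no fold threshold, the counts rose to 5 at day 0 (from 1), 7 at day 2 (from 3), 8 for the KO effect at day 4 against day 0 (from 5), 3 at day 2 against day 0 (from 0), 9 for WT from day 0 to day 2 (from 5), 8 for KO from day 0 to day 2 (from 2), 6 for KO from day 2 to day 4 (from 1), and 2 between the clones at day 4 (from 0, Tead1 and Lats1). limma-voom gave 3 members at day 0, 1 for the KO effect at day 2 against day 0, and 4 and 3 for the earlier and later KO intervals. Quantile normalization gave 0 at day 0. The KO effect at day 2 against day 0 had 1 member with the clones separate or with KO-2 alone, and KO-2 alone gave 1 for KO from day 0 to day 2. The share of all genes called was not computed for the looser threshold, nor by limma-voom for comparisons other than KO versus WT at a day. Those counts therefore have no background to be set against. The cause of the changes in these counts was not tested.

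With each library left out in turn, the called members ranged from 0 to 1 at day 0, from 1 to 3 at day 2 and from 4 to 5 at day 4, and for the KO effect from 5 to 6 (day 4 against day 0), from 0 to 1 (day 2 against day 0) and from 6 to 7 (day 4 against day 2). The comparisons at day 2 and day 4 do not use the libraries of day 0, and leaving those out (chosen after seeing the data) changes only the pooled spread, with 3 and 5 members called. With a replicate block the counts were the same at day 0 (1), day 2 (3) and day 4 (5). The replicate numbers showed no steady pairing of the samples. Over 36 pairs of groups the mean correlation of replicate differences across 10351 genes was -0.048. Single pairs ran from -0.61 to 0.64, and 13 were over 0.1. The mean cannot show whether libraries share a batch that the numbers do not follow, which was not tested. Depth limits Tead3, Tead4 and Lats2 most, with as few as 36, 22 and 16 counts in a WT library.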
